A study of Mus musculus with 5 samples.

Results

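IgG2c plasma cells of the B220+ spleen were the antibody-secreting cells whose heavy-chain transcripts came mostly from Ighg2c (chr12:113285325-113288932, GRCm38, minus strand). Members were selected on measured values: a cell belonged to them when it held at least 10 unique molecular identifiers (UMIs, each counting 1 captured RNA molecule) over the 7 constant-region genes Ighm, Ighg1, Ighg2b, Ighg2c, Ighg3, Ighe and Igha, and at least 70% of those were Ighg2c. The rule was applied to the pair of splenic B220+ libraries and found 562 cells, out of 2348 cells in those libraries and 5476 in all 5 libraries of the series. They divided into 253 of the 1222 cells of the B220+2NBDG- library (20.7%, exact 95% binomial interval 18.5 to 23.1) and 309 of the 1126 cells of the B220+2NBDG+ library (27.4%, 24.9 to 30.2). At a stricter share of 90% the numbers were 244 of 1222 (19.97%) and 145 of 1126 (12.9%), so the order of the libraries turned. These intervals, like the others below, cover counting error only.

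All animals were unimmunized, untreated male C57Bl6/N mice of 8 to 12 weeks with no engineered allele named, and each library pooled the cells of 3 mice, so that single animals cannot be told apart. Cells high for CD138, without Ly6g and without CD11c were sorted in a double sort, with about 1000 cells per subset stated. The gates then divided them by B220, an isoform of the surface phosphatase CD45 found on B cells and young plasma cells, and by whether they had taken in 2NBDG, which is a glucose analog that fluoresces. Each gate was 1 library, and the other 3 libraries (the B220- cells of the spleen without and with 2NBDG, and those of bone marrow with 2NBDG) enter below only where named. Nothing in the labels says that the libraries came from separate groups of mice, so the p-values measure only the spread between libraries, which may be technical. The B220+ pair also differs in the 2NBDG gate, so its libraries are not replicates and that spread includes the gate.

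IgG2c is the form that C57BL/6 mice make of the subclass called IgG2a in other strains. Switching to it is driven by interferon-gamma and the transcription factor T-bet, and the antibody binds activating Fc gamma receptors and complement well. A plasma cell that has switched keeps its V region and replaces the constant region of the heavy chain, while the endoplasmic reticulum is enlarged to fold and glycosylate the antibody.

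The libraries held 12635338 and 15591435 UMIs, with medians of 10118 and 14033 UMIs per IgG2c cell and of 4802 and 4727 UMIs once immunoglobulin genes were set aside. Immunoglobulin genes took 45.7% of the IgG2c cells' UMIs in the 2NBDG- library and 65.4% in the 2NBDG+ library. The remaining cells of the same libraries were alike in this, at 47.2% and 64.6%. At most 4 cell barcodes were shared by any pair of libraries, and 1 by the B220+ pair. Scrublet, a doublet caller, marked 2 of the 253 and 3 of the 309 IgG2c cells. All 10 plasma cell markers were detected in them. Of 10 B cell markers 8 were detected in each library, led by Cd79b and Cd79a, with sums of 2288 and 2918 CPM (CPM are counts per 1e+06 non-immunoglobulin UMIs, the scale of every level below) against 2135 and 2641 CPM in the other cells, and Pax5, the factor that holds B cell identity, was at 0 in both. Summed T cell markers reached 22 CPM in the IgG2c cells and 66.4 CPM in the other cells of the 2NBDG- library. In the 2NBDG+ library the sums were 4.70 and 8.51 CPM. All 5 mast cell and basophil markers were at 0, and summed markers of neutrophils, erythroid cells and megakaryocytes were at most 6.71 CPM in IgG2c cells. Macrophage and monocyte markers, mostly Cd68, summed to 31.3 and 38.2 CPM in IgG2c cells against 36.8 and 28.5 CPM in the others, and stromal and endothelial markers, mostly Pecam1, to 24.6 and 34.2 against 35.9 and 36.04 CPM. Dendritic cell markers summed to 12.6 and 6.71 against 12.8 and 8.26 CPM, and NK cell markers to 2.00 and 13.4 against 8.63 and 15.5 CPM. The plasmacytoid dendritic cell list reached 502 and 633 CPM against 441.5 and 541.1 CPM, mostly Bst2, while its Siglech was at 0 in IgG2c cells.

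Because Ighg2c chose the cells, its values are a description. The median IgG2c cell held 1288 Ighg2c UMIs in the 2NBDG- library and 2254 in the 2NBDG+ library, 97.7% and 89.8% of its heavy-chain UMIs. The nearest cells inside the 70% threshold had 77.3% of 75 UMIs and 74.8% of 2332 UMIs, and the nearest outside had 69.6% of 56 and 67.6% of 611. Few cells lay between classes: 7 and 12 cells had an Ighg2c share of 30% to 70%. Ighg2c RNA was also counted in cells of other classes, where 97.9% of IgM cells in the 2NBDG- library and all of them in the 2NBDG+ library held at least 1 such UMI, with medians of 7 and 67 UMIs. This background was therefore higher in the 2NBDG+ library, and its part in the differences between the gates below was not tested. IgG2b cells of the 2NBDG+ library held a median of 197 Ighg2c UMIs, more than the 74.0 of IgG3 cells. Ighg2b and Ighg2c are similar in sequence, so reads could be split between them in counting. By the same rule, IgG2c cells were 2.32%, 5.59% and 2.24% of the B220-2NBDG-, B220-2NBDG+ and bone marrow libraries.

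Across genes other than those of immunoglobulins, IgG2c cells differed from the other cells of their own library in a limited set that included a secreted protease inhibitor, class II antigen presentation, a chemokine receptor, a survival factor and amino acid supply. Of 8568 genes tested, 87 (1.02%) rose and 117 (1.37%) fell in IgG2c cells at an adjusted p below 0.05 (edgeR's quasi-likelihood test on UMIs summed per library, library as a block, Benjamini-Hochberg adjustment over all genes). The other cells were mostly IgM (710 and 441), with 100 and 135 IgG2b, 55 and 76 IgG3, and 77 and 97 IgA cells. The spread of each gene was mostly borrowed from other genes, at 11.07 prior against 1 residual degree of freedom. With 1 residual degree of freedom the counts moved with the settings, from 29 up and 32 down by DESeq2's Wald test to 237 up and 271 down with cycling cells left out, and no gene passed when the library was not in the design. Against cells of other classes called by the same rule, cells with no clear class left out, the counts were 226 and 235. The calls of Slpi, Prg2, H2-Aa, H2-Ab1, H2-Eb1, Cd74, Fut8, Tnfrsf17, Tnfrsf13b, Bcl2, Slc3a2, Asns, Txndc5, Ptpn6 and Lag3 against other cells held under every alternative that used the B220+ libraries, except the one without the library in the design. By DESeq2's Wald test those of Vpreb3, Abi3, Hist3h2ba, H2-Eb2, H2-DMa, H2-DMb2, H2-Ob, Jchain, Eaf2, Slc7a5, Shmt2, Chac1, Cd83, Blk, Pkm, Cs, Cdk1, Cdc20 and Rrm2 were lost.

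Slpi led the higher genes. It encodes secretory leukocyte peptidase inhibitor, a small secreted protein that blocks serine proteases such as elastase, and lies at chr2:164354070-164389095. IgG2c cells held 27660 CPM of Slpi in the 2NBDG- library against 6560 CPM in the other cells. In the 2NBDG+ library they held 47180 CPM against 15080 CPM. Both libraries thus had the higher level in IgG2c cells, and the log2 change was 1.85 ± 0.11 (fitted SE, 2 libraries, adjusted p = 1.7e-06 by edgeR's quasi-likelihood test). Each SE given here and below came from the fit's test statistic, whose spread was mostly borrowed from other genes. It does not measure how far apart the 2 libraries lay.

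The level of Slpi followed the heavy-chain class in the same order of the leading classes in both libraries. IgG2b cells held 21090 and 36530 CPM, IgG3 cells 13060 and 14630 CPM, IgM cells 3585 and 7884 CPM, and IgA cells 4758 and 6837 CPM. IgM and IgA cells changed places between the libraries. Against IgM cells the log2 change in IgG2c cells was 2.71 ± 0.15 (adjusted p = 1.2e-11, edgeR).

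**Figure D1:**
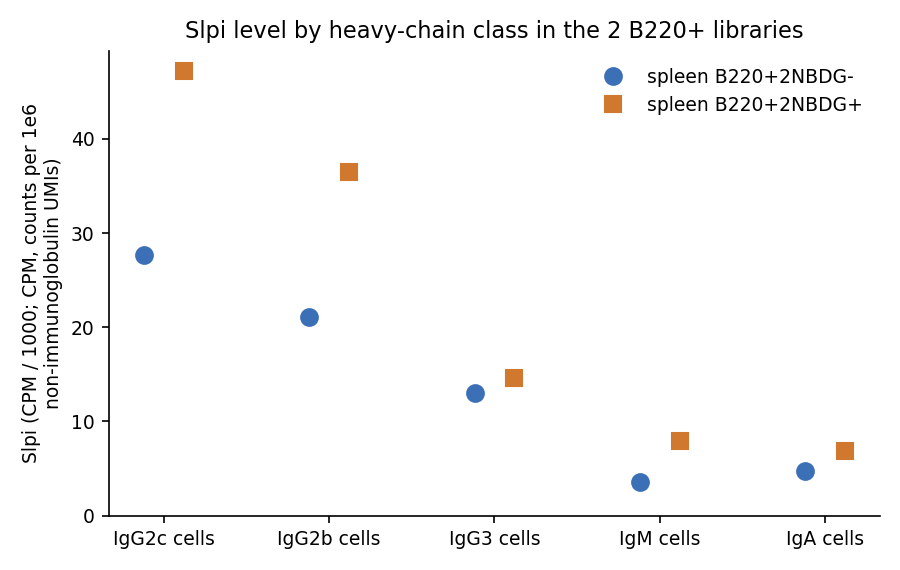
Slpi level (vertical axis, CPM divided by 1000) for each heavy-chain class, 1 point per class and library, circles for B220+2NBDG- and squares for B220+2NBDG+, no error bars since each point is 1 library. IgG2c cells are highest in both libraries, at 27660 and 47180 CPM, and IgG2b cells are next.

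Slpi varied widely among the IgG2c cells themselves. After each cell was thinned to 1000 non-immunoglobulin UMIs, which left out 0 and 1 of them as too shallow, the median was 11 UMIs in the 2NBDG- library with a 10th to 90th percentile range of 0 to 81.8. In the 2NBDG+ library it was 22 UMIs, with a range of 4 to 123. At least 10 Slpi UMIs were held by 132 of 253 cells (52.2%, 45.8 to 58.5) and by 227 of 308 cells (73.7%, 68.4 to 78.5), against 17.1% and 31.7% of the other cells. Unthinned, 97.2% of IgG2c cells and 88.3% of IgM cells of the 2NBDG- library, and all of both in the 2NBDG+ library, held at least 1 Slpi UMI, so detection alone did not separate the classes. Cells with little Slpi and cells with much of it were thus both found in the class.

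**Figure D2:**
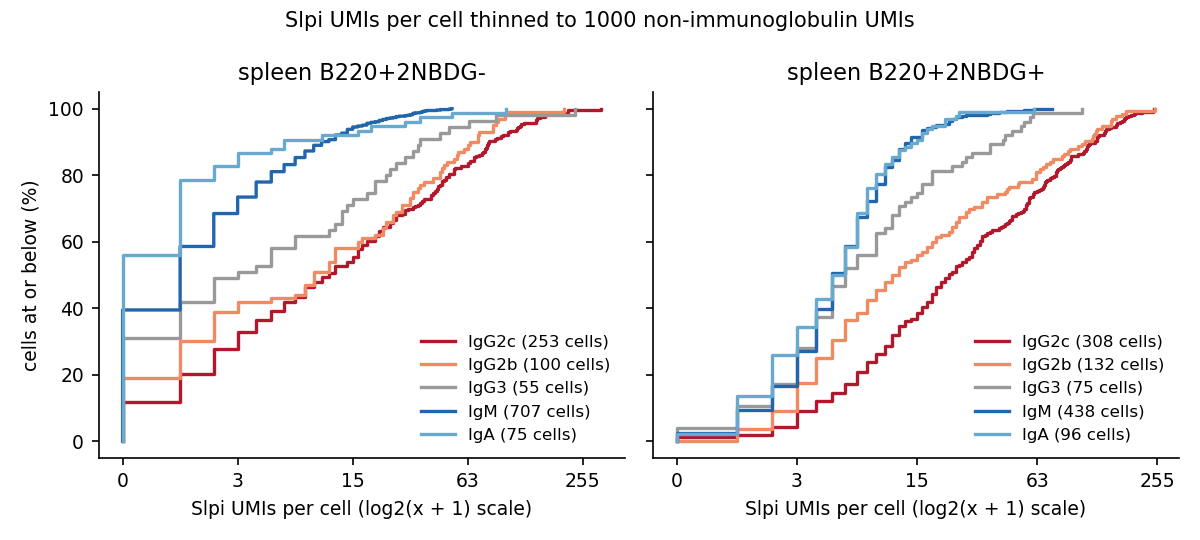
Cumulative share of cells (vertical axis, percent) at or below each number of Slpi UMIs (horizontal axis, log2(x + 1) scale) after thinning to 1000 non-immunoglobulin UMIs, 1 line per heavy-chain class and 1 panel per B220+ library. The IgG2c line lies farthest to the right over most of its course, with medians of 11 and 22 UMIs, and spans the whole range of the axis.

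Further genes rose strongly in IgG2c cells. Prg2, which encodes a basic protein best known from eosinophil granules, had 1110 CPM in IgG2c against 362.1 CPM in other cells of the 2NBDG- library, and 1944 against 1254 CPM in the 2NBDG+ library. Its log2 change was 1.09 ± 0.17 (adjusted p = 0.0041, edgeR), smaller in the 2NBDG+ library. After thinning, 42.3% of IgG2c, 37.0% of IgG2b and 32.7% of IgG3 cells of the 2NBDG- library held a Prg2 UMI. In the 2NBDG+ library the shares were 57.8%, 61.4% and 60.0%, so the other IgG classes were much alike. IgM cells had 20.5% and 46.35%, and IgA cells 5.33% and 30.2%. Vpreb3, a B lineage protein of the endoplasmic reticulum that associates with newly made immunoglobulin chains, had 161 against 67.3 CPM and 140 against 97.4 CPM, a log2 change of 0.89 ± 0.15 (adjusted p = 0.0081). Vpreb3 was as high in IgG2b cells, at 190 and 169 CPM, and in IgA cells, at 157 and 272 CPM, while IgM cells held 32.0 and 28.6 CPM. Inka1, an inhibitor of the kinase PAK4, rose by 1.28 ± 0.17 on the log2 scale, Hist3h2ba, a histone H2B gene, by 1.22 and Abi3, an adaptor of actin remodelling, by 0.995. Gm8879, Gm8890 and Gm5861 rose by 1.59, 1.32 and 1.59, but they lie between 11127634 and 11260494 on chromosome 5 in a family of near-identical predicted genes whose reads may have been split, so their separate values are uncertain.

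Class II antigen presentation was, of the 17 gene lists examined, the one with the largest share of its genes higher in IgG2c cells. MHC class II molecules display peptides to CD4 T cells and are usually turned down as B cells become plasma cells. Of 10 tested genes of the list, 8 rose and none fell, and the median log2 change was 0.58 against 0.01 over all genes tested. H2-Ab1, the class II beta chain, had 3513 CPM in IgG2c cells against 2484 CPM in the other cells of the 2NBDG- library, and 3261 against 2029 CPM in the 2NBDG+ library. Its partner chain H2-Aa had 1079 against 747.3 CPM and 733.2 against 441.5 CPM.

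The class II genes were higher in IgG2c cells of both libraries. The log2 changes were 0.59 ± 0.07 for H2-Ab1 (adjusted p = 0.00061), 0.62 ± 0.07 for H2-Aa and 0.68 ± 0.08 for H2-Eb1, the beta chain of the second class II molecule. H2-Eb2, a related beta chain, rose by 1.22 from a low level, with 35.9 against 17.6 CPM and 55.7 against 21.0 CPM. The peptide-loading genes H2-DMa, H2-DMb2 and H2-Ob rose by 0.51, 0.99 and 0.57, and Cd74, the invariant chain, by 0.34 (adjusted p = 0.028). H2-Oa and H2-DMb1 did not pass. DESeq2's Wald test called 4 of the 10, and against IgM cells edgeR called 7 of 9. Of the MHC class I list, 1 of 15 passed: B2m, the shared light chain of class I molecules, rose by 0.35.

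Receptor genes for survival factors and Bcl2 fell in IgG2c cells, while most genes of their lists did not pass. Tnfrsf17 encodes BCMA, a receptor for the survival factor APRIL. It had 58.6 CPM in IgG2c cells against 255.4 CPM in the other cells of the 2NBDG- library, and 67.1 against 292 CPM in the 2NBDG+ library. Both libraries showed the lower level, a log2 change of -2.13 ± 0.10 (adjusted p = 5.7e-07). It was also low in IgG2b cells, at 34.9 and 90.5 CPM, and high in IgA cells, at 966 and 490 CPM. Tnfrsf13b, which encodes the related receptor TACI, had 177 against 283 CPM and 238 against 350 CPM, a log2 change of -0.62.

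Bcl2, an inhibitor of cell death, had 7.99 CPM in IgG2c cells against 43.9 CPM, and 8.05 against 51.1 CPM, a log2 change of -2.57 ± 0.22 (adjusted p = 6.8e-05). IgM cells held 54.9 and 65.5 CPM of it. In all, 2 of 22 tested genes of the list of survival receptors and Bcl2 family members fell and none rose, and its median change was 0.01, that of all genes. Against IgM cells Bcl2l1, which encodes the related survival protein Bcl-xL, rose by 1.23 (adjusted p = 0.026).

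**Figure D3:**
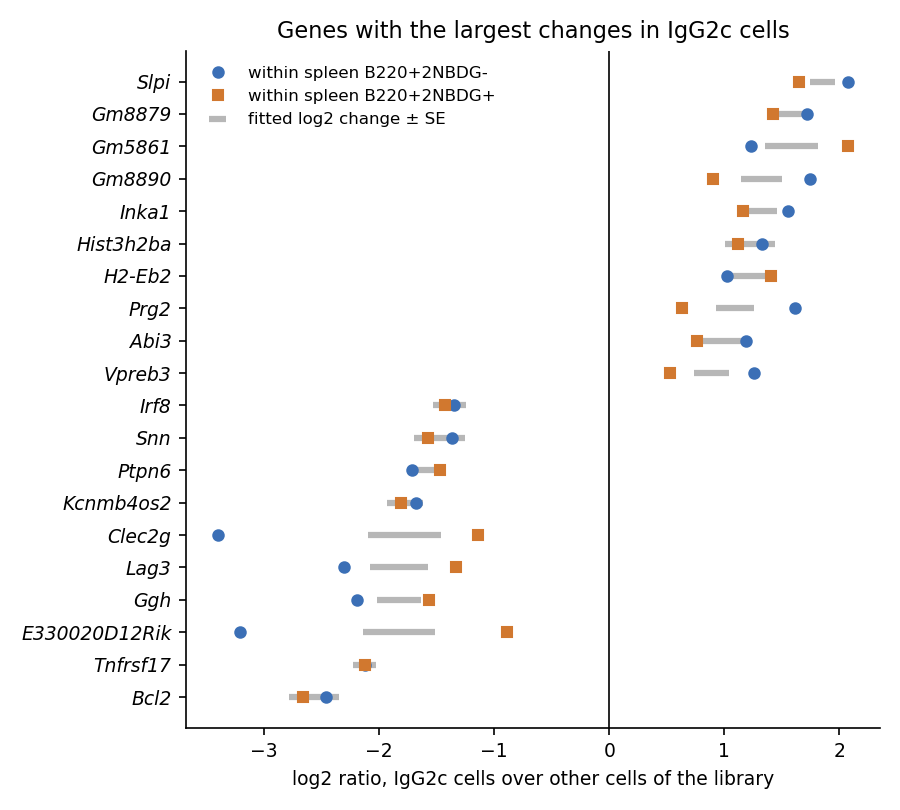
Log2 ratio of IgG2c cells over the other cells of the same library (horizontal axis) for the 10 genes with the largest rise and the 10 with the largest fall, circles and squares for the B220+2NBDG- and B220+2NBDG+ libraries, grey bars for the fitted change ± SE. Both libraries lie on the same side of 0 for every gene shown, as the choice of genes required, from Slpi at 1.85 down to Bcl2 at -2.57.

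Several regulators of B cell signalling were lower in IgG2c cells, each as a single gene. Ptpn6, which encodes the inhibitory phosphatase SHP-1, had 27.3 against 89.4 CPM and 29.5 against 82.1 CPM, a log2 change of -1.60 ± 0.14 (adjusted p = 0.00011). Lag3, an inhibitory receptor that binds MHC class II, had 7.99 against 39.5 CPM and 10.7 against 27.0 CPM, a change of -1.83. Cd200, a ligand that restrains myeloid cells, had 1.33 against 24.6 CPM and 6.04 against 35.5 CPM, a change of -3.04 at a low level. Fcmr, the receptor for the Fc part of IgM, fell by 0.63. These were 3 of 15 tested genes of the list of inhibitory and Fc receptors, with Ptpn6 outside it. Against IgM cells the changes of Lag3, Cd200 and Bcl2 were -2.32, -3.48 and -2.95. T cells can carry these genes, and the summed T cell markers given above were also higher in the other cells; their part was not tested. Irf8, a B cell transcription factor, fell by 1.39, Ggh, a folate hydrolase of lysosomes, by 1.83, Snn (stannin) by 1.47, and Clec2g, Kcnmb4os2 and E330020D12Rik by 1.78, 1.77 and 1.83.

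Most plasma cell identity genes did not pass the test. Of 27 tested, 1 rose and 4 fell. Sdc1, which encodes CD138, the sorting marker, had 397 CPM in IgG2c cells and 402 CPM in the other cells of the 2NBDG- library, and 511 and 551 CPM in the 2NBDG+ library, a log2 difference of -0.07 (adjusted p = 0.76). Xbp1, the driver of the secretory program, and Prdm1, which encodes Blimp-1, had differences of 0.24 (adjusted p = 0.092) and -0.26 (adjusted p = 0.51). Irf4 had one of -0.12 (adjusted p = 0.71). These p-values do not show that the levels were equal.

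Jchain, the chain that joins IgM and IgA into polymers and is made by IgG plasma cells too, fell by 0.45 on the log2 scale (adjusted p = 0.023), with 82930 against 104600 CPM and 145100 against 212000 CPM. Txndc5, a disulfide isomerase of the endoplasmic reticulum, had 1211 against 2880 CPM and 1093 against 2687 CPM, a change of -1.28 ± 0.07 (adjusted p = 1.6e-06, edgeR). The other IgG classes were low too. After thinning, 58.9% of IgG2c, 46.0% of IgG2b and 50.9% of IgG3 cells of the 2NBDG- library held a Txndc5 UMI. In the 2NBDG+ library the shares were 58.1%, 54.55% and 49.3%. IgM cells had 89.96% and 92.5%, and IgA cells 90.7% and 88.5%. Trp53inp1 fell by 0.35, and Eaf2, an elongation factor partner, rose by 0.35.

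B cell identity genes went both ways, with 5 of 19 up and 3 down. Ms4a1, which encodes CD20, rose by 0.65, Cd79b, a signalling chain of the B cell receptor, by 0.31, Blnk, its adaptor, by 0.47 and Cd24a by 0.46, in addition to Vpreb3. Cd83, an activation marker, fell by 1.79, Blk, a Src family kinase, by 1.08 and Ly6d by 0.58. Ptprc, the gene of CD45, had 97.8 against 77.3 CPM and 80.5 against 54.1 CPM, a difference of 0.44 (adjusted p = 0.074). These 3' counts do not resolve its B220 isoform. Of 16 tested genes of the homing and adhesion list, Itgb2, an integrin chain, rose by 0.50 while Itgb7, the integrin chain of gut homing, and Klf2, a factor of lymphocyte trafficking, fell by 0.92 and 0.82. The last pair was high in IgA cells, with 596 and 215 CPM of Itgb7 and 1391 and 215 CPM of Klf2. Neither passed against IgM cells, with differences of 0.46 and 0.17. The same held for Anxa2 of the memory and activation list, which fell by 2.60 against all other cells, was at 1089 CPM in IgA cells of the 2NBDG- library, and had a difference of -0.30 against IgM cells. Lgals1, Ptpn22 and Plac8 of that list fell by 0.36, 0.68 and 0.81, which with Anxa2 made 4 of 18 down and none up.

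Amino acid supply moved the other way from class II presentation. Of 19 tested genes of the list of amino acid supply and the integrated stress response, 6 fell and none rose, with a median of -0.38 against 0.01 over all genes. Slc3a2 encodes the heavy chain of CD98, which carries large neutral amino acid transporters to the membrane. It had 428 CPM in IgG2c cells against 1071 CPM in the other cells, and 1001 against 1986 CPM, a log2 change of -1.15 ± 0.08 (adjusted p = 1.3e-05). Its light-chain partner Slc7a5 fell by 0.68. After thinning, a Slc3a2 UMI was held by 32.0% of IgG2c, 29.0% of IgG2b, 36.4% of IgG3 and 22.7% of IgA cells of the 2NBDG- library. IgM cells there had 56.0%, so the low level of Slc3a2 was shared by the other switched classes. In the 2NBDG+ library 56.2% of IgG2c and 80.8% of IgM cells held one.

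Of the synthesis genes in the list, Asns, Mthfd2 and Shmt2 fell, whereas Phgdh and Psat1 of serine synthesis, at -0.38 (adjusted p = 0.066) and -0.23 (adjusted p = 0.62), did not pass. Asns, asparagine synthetase, had 55.9 against 107 CPM and 65.7 against 140 CPM, a change of -1.03 ± 0.12. Mthfd2 and Shmt2, enzymes of mitochondrial one-carbon metabolism, fell by 0.99 and 0.52, and Chac1, a stress-induced glutathione-degrading enzyme, by 1.02. Against IgM cells 7 of 16 fell, and 1, Ddit4, an inhibitor of mTORC1, rose by 0.87. With cycling cells left out, 11 of 19 fell against the other cells, and DESeq2's Wald test called 3.

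**Figure D4:**
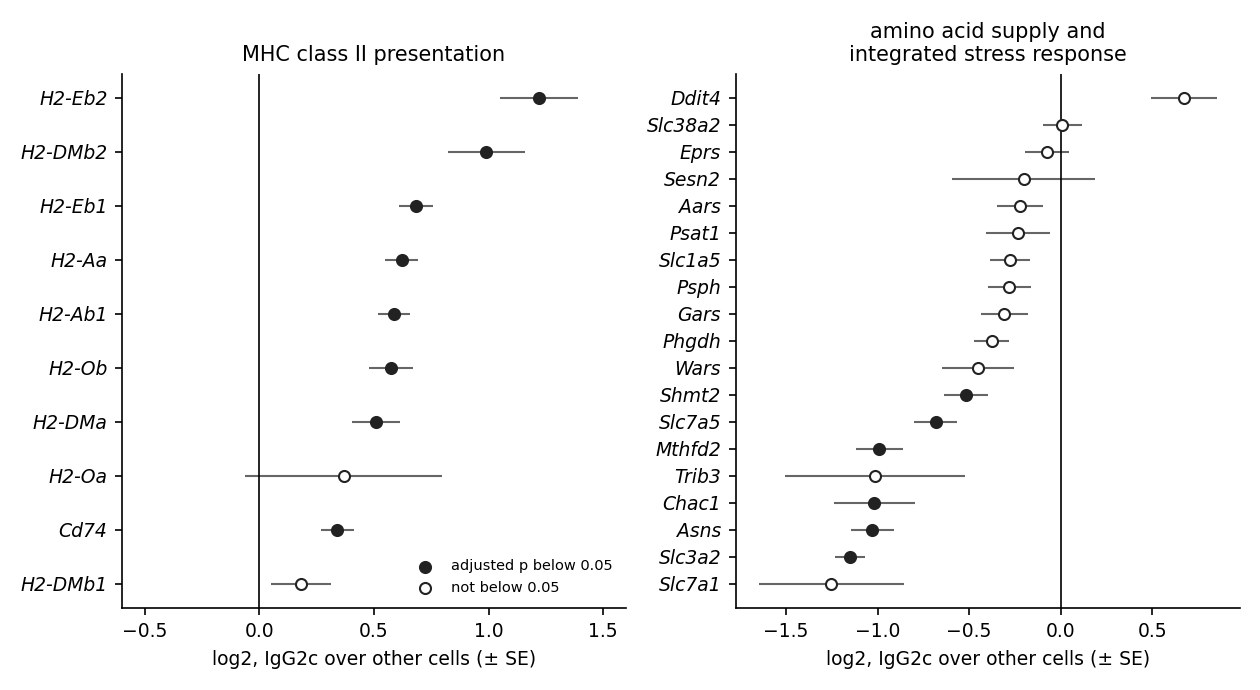
Fitted log2 change in IgG2c cells against the other cells of the B220+ libraries (horizontal axis, bars ± SE) for each tested gene of the class II presentation list (left) and of the amino acid and stress response list (right), filled where the adjusted p was below 0.05. On the left 8 of 10 genes are filled and to the right of 0, and on the right 6 of 19 are filled and to the left of 0.

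Protein folding and glycosylation genes showed few changes. Of 29 genes of the unfolded protein response and folding list, 2 rose (Ero1lb by 0.40 and Lman1 by 0.34) and 3 fell (Sdf2l1 by 0.30, Herpud1 by 0.43 and Ddit3, which encodes CHOP, by 1.12). Fut8 adds the core fucose to the Fc glycan, a sugar that limits binding to an Fc gamma receptor of natural killer cells. It had 372.6 against 210.2 CPM and 400.5 against 266.8 CPM, a log2 change of 0.70 ± 0.09 (adjusted p = 0.00093). Of the 25 tested glycosylation genes, Ddost, an oligosaccharyltransferase subunit, also rose, by 0.30, and Stt3b, a catalytic subunit of that enzyme, fell by 0.49.

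Of the genes of the IgG2 switch and T-bet list, the chemokine receptor gene was the one that rose. Cxcr3, a chemokine receptor that T-bet induces and that draws cells to sites of interferon, had 153 CPM in IgG2c cells against 103.6 CPM in the other cells, and 167 against 78.6 CPM, a log2 change of 0.81 ± 0.12 (adjusted p = 0.0024). IgG2b cells, at 200.5 and 145.1 CPM, and IgG3 cells, at 226.2 and 197.2 CPM, were as high. It was 1 of 13 tested genes of the list that passed, and the median of the list was -0.17. Tbx21 itself, the gene of T-bet, was at 2.00 and 4.03 CPM in IgG2c cells and at 2.11 and 1.001 CPM in the others, too low to be tested. Of 22 interferon-induced genes, Bst2, Psmb8 and Ly6a rose by 0.43, 0.37 and 0.32, and Ifi27l2a fell by 0.65.

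Among the remaining lists, 3 of 18 immediate early genes rose (Dusp1 by 0.62, Btg2 by 0.52 and Fos by 0.39) and 2 fell (Nfkbia by 0.86 and Ier5 by 0.48). In glycolysis 1 of 15 rose, Pkm, the gene of pyruvate kinase, by 0.38, with 720 against 534 CPM and 336 against 270 CPM. In the tricarboxylic acid cycle 1 of 24 rose, Cs, the gene of citrate synthase, by 0.48. The glucose transporter gene Slc2a1, at 12.6 and 10.1 CPM in IgG2c cells, and the hexokinase gene Hk2, at 19.96 and 8.72 CPM, did not pass.

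Cell cycle genes were slightly higher in IgG2c cells as a list, with few single genes past the test. Of 35 tested, 3 rose, Cdc20 by 0.75, Cdk1 by 0.73 and Rrm2 by 0.50, 32 had a change above 0, and the median was 0.41. With cycling cells left out the median was -0.003 and none rose. Those cells were called from UMIs of this same list, so a smaller difference was built into that step. With members defined at 90% Ighg2c the median was 0.09. Mki67, the proliferation marker, had 74.5 against 70.6 CPM and 17.4 against 16.5 CPM, a difference of 0.09 (adjusted p = 0.86). Cells with at least 3 cell cycle UMIs after thinning were 44 of 253 IgG2c cells (17.4%, 12.9 to 22.6) and 13.9% of the others in the 2NBDG- library. In the 2NBDG+ library they were 6 of 308 (1.95%, 0.718 to 4.19) and 1.61%. The intervals of IgG2c and other cells overlapped within each library. Unthinned, the shares in IgG2c cells were 36.4% and 12.6%.

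Against IgM cells alone, in a fit of all 5 classes with 4 residual degrees of freedom, 118 of 5532 genes (2.13%) rose and 170 (3.07%) fell in IgG2c cells. IgM is the class before switching, and it made up most of the reference above, so the comparisons share their IgG2c cells and many reference cells. Beyond Slpi, the leading genes were Vpreb3 at 2.26 ± 0.22 (adjusted p = 1.4e-07), Prg2 at 1.46 and Cxcr3 at 1.28 among those that rose. Tnfrsf17 at -2.26, Samsn1, an adaptor that restrains B cell activation, at -2.46, Ptpn6 at -2.12 and Slc3a2 at -1.55 were among those that fell. Of the T-bet list Gbp2, an interferon-induced GTPase, rose by 1.94 beside Cxcr3. Of the cell cycle list 9 of 33 rose and the median was 0.66.

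Against the other IgG subclasses in the same fit, the mean of IgG2b and IgG3 cells, 1 of 5532 genes rose (0.0181%) and none fell (0.0%). The gene was Slpi, with a log2 change of 0.93 ± 0.12 (adjusted p = 0.00026). At an unadjusted p below 0.05 there were 254 genes, and DESeq2 also called 1 up and none down. No gene of the 17 lists passed, 0 of 9 class II genes were called, at a median of 0.24, and the amino acid list had a median of -0.02. The call of Slpi was lost when cycling cells were left out (log2 change 0.81, adjusted p = 0.18), when immunoglobulin UMIs were counted in the totals (0.92, adjusted p = 0.063), in the 3 B220- libraries alone (1.26, adjusted p = 0.70) and without the library in the design (0.97, adjusted p = 1.0).

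IgG2c cells of the 3 B220- libraries (30, 50 and 21 cells), which the choice of members did not use, gave the same measure in other samples. Slpi was 34520 against 3081 CPM in the splenic B220-2NBDG- library, 60240 against 7226 CPM in the B220-2NBDG+ library and 129800 against 16390 CPM in bone marrow, a log2 change of 3.10 ± 0.13 (adjusted p = 4.1e-29). In that fit of 7636 genes, 73 rose (0.956%) and 72 fell (0.943%). Of the 87 genes that rose in the B220+ libraries, 77 were tested there, 69 had the same direction and 30 passed. Of the 117 that fell, 114 were tested, 109 had the same direction and 44 passed, while over all genes 42.7% lay above 0 and 57.3% below. Among those that passed again were H2-Aa, H2-Ab1, H2-Eb1, Cd74, Cxcr3, Fut8, Tnfrsf17, Tnfrsf13b, Bcl2, Slc3a2, Asns, Txndc5, Ptpn6 and Lag3. Against IgM cells of these libraries 53 of 4003 genes rose (1.32%) and 36 fell (0.899%).

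The sizes were not all alike in the B220+ and B220- libraries. A test of the difference over all 5 libraries, added after the values were seen, called 12 of 9401 genes (0.128%) with a more positive change in the B220+ libraries and 14 (0.149%) with a more negative one. Slpi changed less in the B220+ libraries, by 1.85 against 3.10 (adjusted p = 1.2e-10 for the difference), and so did Cxcr3, by 0.81 against 3.17 (adjusted p = 3.4e-07). For Cxcr3 the other cells of the splenic B220- libraries held 8.22 and 8.33 CPM, far under the 103.6 and 78.6 CPM of the other B220+ cells. Prg2 changed more in the B220+ libraries, by 1.09 against 0.19 (adjusted p = 1.6e-06).

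Between the 2NBDG gates there was 1 library each, so the comparison within IgG2c cells has no replicate check and no test. At a 2-fold ratio of CPM, taking genes that reached 25 CPM and 50 UMIs in the library where they were higher, 63 of 3374 genes (1.87%) were higher in 2NBDG+ IgG2c cells and 217 (6.43%) were lower. Scaled to all UMIs, immunoglobulin genes included, the numbers were 7 and 898. Of the 17 gene lists, the cell cycle list held the most of the lower genes, 28 of the 217. All 28 cell cycle genes that could be compared passed 2-fold, and the median of their log2 ratios was -2.67, that of all genes being -0.15. Mki67 went from 74.5 to 17.4 CPM, a ratio of 0.234 (0.147 to 0.361), Rrm2, the ribonucleotide reductase subunit of S phase, from 357 to 61.0 CPM, and Hmgb2, a chromatin protein, from 638 to 107 CPM. The other cells of the libraries showed like levels, for example 70.6 and 16.5 CPM of Mki67. With cycling cells left out, 9 of the 28 were lower, but those cells were called from the same list, so a drop was built in.

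Of 10 glycolysis genes compared, 4 were at least 2-fold lower in the 2NBDG+ IgG2c cells, none was 2-fold higher and 1 lay above 0. Gapdh went from 679 CPM in 2NBDG- to 319 CPM in 2NBDG+ cells, a ratio of 0.470 (0.420 to 0.524), and Pkm from 720 to 336 CPM. Ldha went from 261 to 112 CPM and Eno1 from 276 to 111 CPM. The other cells of the libraries differed alike, for example from 619 to 273 CPM of Gapdh and from 534 to 270 CPM of Pkm. The list median in IgG2c cells was -0.62, and with cycling cells left out none of the 10 passed 2-fold and the median was -0.15. None of 22 genes of the tricarboxylic acid cycle passed.

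Genes higher in 2NBDG+ IgG2c cells included Slc3a2, from 428 to 1001 CPM, a ratio of 2.34 (2.13 to 2.57), and Ly6c2, a surface protein of plasma cells, from 513 to 1423 CPM, a ratio of 2.77 (2.55 to 3.02). The other cells of the libraries also differed in Slc3a2. After thinning, 48.8% and 70.2% of them held a Slc3a2 UMI, beside 32.0% and 56.2% of IgG2c cells. Immediate early genes leaned upward, with 14 of 15 above 0 and Fosb, from 12.6 to 55.0 CPM, and Dusp1, from 41.3 to 105 CPM, past 2-fold. Slpi itself had a ratio of 1.71 (1.69 to 1.73) and did not reach 2-fold. Of the class II list only H2-DMb2 passed, from 93.8 to 18.1 CPM. The highest ratios of all belonged to genes such as Hist2h2aa1, from 10.6 to 118 CPM, and Nme2, from 28.6 to 217 CPM. These had nearly the same levels in the other cells, at 7.29 and 125 CPM for Hist2h2aa1. They belong to 20 genes that split the 5 libraries in a way that no gate follows. In that split the B220+2NBDG- and splenic B220-2NBDG+ libraries stood apart from the splenic B220-2NBDG-, the B220+2NBDG+ and the bone marrow libraries. The compared libraries thus lay on opposite sides, so the 2NBDG gate and this split cannot be told apart. Without the 20 genes the numbers were 54 and 210, but shifts below 2-fold along the split were not left out.

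**Figure D5:**
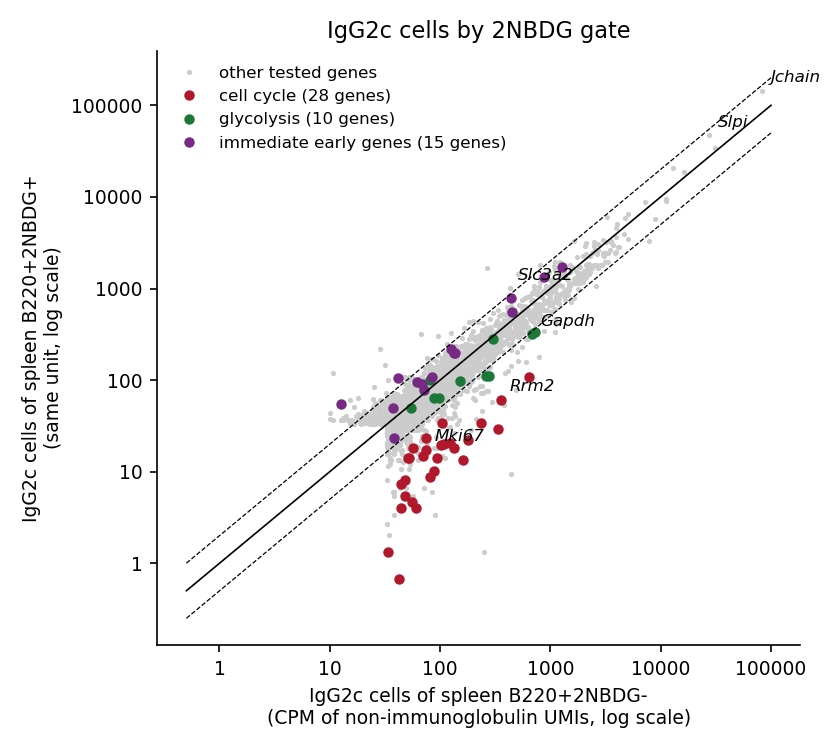
Level of each compared gene in IgG2c cells of the B220+2NBDG- library (horizontal axis) and of the B220+2NBDG+ library (vertical axis), both in CPM on log scales, with equality as a solid line and 2-fold as dashed lines, and 3 gene lists in colour. All 28 cell cycle genes lie below the lower dashed line, as do 4 of the 10 glycolysis genes, and Slc3a2 lies above the upper one.

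Light-chain V genes show how the IgG2c cells varied in the antibody they made. A leading kappa V gene, with at least 5 UMIs and 70% of the cell's kappa V UMIs, was found in 127 of 253 cells and in 208 of 309, at medians of 46 and 520 kappa V UMIs per cell. The IgG2c cells used 39 and 37 genes, an effective number (the inverse Simpson index) of 23.1 and 13.9, against 11.8 and 5.25 in the other cells. Most of those others were IgM cells, at 8.61 and 3.19, and the other switched classes were not counted apart. The differences are therefore not shown to be particular to IgG2c. These calls rest on the 70% rule, since at 90% of V UMIs 2 and 0 IgG2c cells kept a leading gene. Igkv3-4 (chr6:70671788-70672377) led 5 of 127 IgG2c cells (3.94%, 1.29 to 8.95) and 29 of 208 (13.9%, 9.54 to 19.4), against 24.03% and 39.5% of the other cells. Among IgM cells alone it led 117 of 402 and 148 of 286. Igkv14-111 (chr6:68256389-68256869) led 8 of 127 (6.30%, 2.76 to 12.0) and 33 of 208 (15.9%, 11.2 to 21.5), against 2.91% and 1.49%. Igkv9-120 led 8.66% and 7.69% of the IgG2c cells, and Igkv10-96 led 8.66% and 3.85%. The heavy-chain V genes had a median of 4 UMIs per cell and a leading gene in only 20 of 562 cells, so they are not described. Lambda light chains were called in 2 of 250 (0.800%) and 1 of 308 (0.325%) IgG2c cells, against 1.46% and 0.615% of the other cells. Cells that share a V gene may be of one clone, and sequences were not read here to tell.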

How the data were processed

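The 10x Genomics 3' kit, version 2, was used, per the labels. Cell Ranger 2.1 and the GRCm38 build are named in the submitters' processing notes, the annotation and barcode filter being not given in the sources used here. The deposited tables hold raw UMI counts, whole numbers per gene and cell barcode, for 33456 genes, of which 32655 matched GENCODE M21 (GRCm38), used for positions. No further barcode was removed. The members and the 17 gene lists were chosen with earlier results of these data known, so no list is independent support for its direction.

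Counts were summed over the cells of each class in each library. The 266 immunoglobulin genes were left out of the fits and of the CPM totals, since the rule uses them. edgeR 4.0.16 (R 4.3.3; TMM factors, filterByExpr, quasi-likelihood test with Benjamini-Hochberg adjustment over all genes tested, adjusted p below 0.05) compared IgG2c cells with all other cells of the same library, and, in 1 fit of 5 classes with at least 30 cells in both libraries, with IgM and with IgG2b and IgG3 cells, always with the library as a block. The labels give no replicate numbers, and same-library sums are paired because they come from 1 pool of cells. The gates were compared by ratio, with exact conditional binomial 95% intervals and a floor of 3 UMIs. Shares have exact binomial (Clopper-Pearson) intervals from scipy 1.17.1. The procedure was tested on simulated data, in which a changed gene had the same class effect in both libraries. That cannot show how the fits do where the effect differs between them. Alternatives included DESeq2 1.42.0, Scrublet in scanpy 1.11.5, thinning, other thresholds and leaving out cycling cells. Some immunoglobulin genes were not analysed here, and a few genes that the naming rule selects are not reported here.

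Genes named are the 10 largest changes in each direction against other cells and the 8 largest against IgM and against IgG2b and IgG3 cells, among genes past the test with at least 25 CPM in the higher group of both libraries and the same direction in both, the 8 highest and 8 lowest ratios between gates, members of lists that passed, the most abundant member of each list, and a few fixed markers such as Sdc1 and Mki67. Cd200 is below the CPM minimum in 1 library and was named from the comparison with IgM cells.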

Additional observations from a re-analysis of the deposited data

Results flagged for a closer look

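The IgG2c effect, the log2 change of IgG2c cells against the other cells of the same library, differed between the B220+ and the B220- libraries for 9 of the genes named above, by edgeR's quasi-likelihood test of the difference over all 5 libraries (Benjamini-Hochberg adjustment over 9401 genes, 3 residual degrees of freedom). The values below are the effect in the B220+ minus that in the B220- libraries. In total, 537 genes had an unadjusted p below 0.05, and no cause was tested.

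For genes that rose in both sets, the difference was -2.32 for Cxcr3 (adjusted p = 3.4e-07), -1.19 for Slpi (adjusted p = 1.2e-10) and -0.98 for H2-Aa (adjusted p = 0.00039), all with the smaller rise in the B220+ libraries. Prg2 and Vpreb3 rose in the B220+ libraries and did not pass in the B220- libraries, where their values were 0.19 and 0.05. Their differences were 0.94 (adjusted p = 1.6e-06) and 0.91 (adjusted p = 0.014). In bone marrow, where there were 21 IgG2c cells, H2-Aa was at 6.17 CPM in them against 32.4 CPM in the other cells. The lower value is 1 UMI, under the floor of 3 UMIs, so no direction is read from it.

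Tnfrsf17 fell more in the B220+ libraries, with a difference of -0.86 (adjusted p = 0.035), and Stt3b fell less, with one of 1.24 (adjusted p = 0.0095). Fos, with a difference of 0.70 (adjusted p = 0.026), had an effect of 0.39 in the B220+ and -0.28 in the B220- libraries. Plac8, with one of -0.97 (adjusted p = 0.023), had effects of -0.81 and 0.28.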

How the results depend on the processing

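Against other cells, the numbers up and down (87 and 117) became 239 and 222 with DESeq2's size factors in edgeR, 29 and 32 by DESeq2's Wald test, 166 and 254 with no filter on low counts, 237 and 271 with cycling cells left out, 52 and 61 with cells thinned to 1000 UMIs, 168 and 244 with all 5 libraries, and 226 and 235 against cells called for a class. The number up became 146 with immunoglobulin UMIs in the totals, 162 at 90% dominance and 165 with doublets left out, and the number down 72 in the 3 B220- libraries alone. Against IgM cells (118 and 170) they became 19 and 30 by the Wald test, 45 and 48 with thinned cells and 53 and 36 in the B220- libraries alone, and the number down 96 with immunoglobulin UMIs in the totals. Against IgG2b and IgG3 cells (1 and 0) they became 4 and 4 with no filter. The number up became 0 with immunoglobulin totals, with cycling cells left out and in the B220- libraries alone, and the number down became 1 at 90% dominance and 2 with thinned cells. With no replicate block, that is without the library in the design, the numbers up were 0 in all 3 comparisons, and those down 0. Between gates (63 and 217) the numbers became 7 and 898 scaled to all UMIs, 22 and 96 at a minimum of 100 CPM and 17 and 30 with thinned cells, an alternative chosen after seeing the data, as was that of the B220- libraries. At 90% dominance 33 were higher, and with cycling cells left out 51 were lower. The IgG2c share of the 2NBDG+ library was 12.9% at 90% dominance, below the 19.97% of the 2NBDG- library. The cycling share of IgG2c cells at that setting was 0.0% in the 2NBDG+ library and 15.2% in the 2NBDG- library. Unthinned cycling shares were 36.4% and 12.6%, and a 90% rule for V genes left 2 and 0 calls. Single genes changed sign as follows. With cycling cells left out the log2 change was -0.36 for Cdk1 against other cells, -0.23 for Hmgb2 against IgM cells, and between gates 0.51 for Mcm7, 0.27 for Pcna and 0.91 for Psat1, which was 0.72 with thinned cells. Of these genes, all but Psat1 are in the list by which cycling cells were called. In the B220- libraries alone it was 0.17 for Chac1, -0.25 for Cs, 0.75 for Fcmr, -0.28 for Fos, -0.99 for Hist3h2ba, 0.28 for Plac8 and 0.017 for Trp53inp1 against other cells, and 0.49 for Fcmr, -0.16 for Hmgb2, 0.23 for Plac8, -0.12 for Prg2 and 0.23 for Trp53inp1 against IgM cells. Of 86 named genes against other cells, 78 had a call to lose, and 43 lost it by the Wald test. The cause of these moves was not tested, beyond fewer counts when cells are thinned. With either B220+ library left out, no named gene with a call changed sign. This could hardly come out otherwise, since most were named only if both libraries had the same direction. In size, 4 or 6 of 86 against other cells and 5 or 11 of 74 against IgM cells moved by over 1.5-fold. A minimum of 50 heavy-chain UMIs changed no call of a named gene.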
